A study of Mus musculus with 18 samples.

Results

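The 9 genes described here form the interleukin-6 (IL-6) family and STAT3 signalling group in the mouse whisker pad: the cytokines Il6, Lif and Osm, the receptors Il6ra, Lifr, Osmr and Il6st, the transcription factor Stat3 and its inhibitor Socs3. They were chosen by name from 35150 genes, with no measured value in the rule. All 9 were found, and 6 of them passed a minimum level. Levels are in TPM, a transcript abundance scaled to length and to library, and the minimum was 1 TPM in no fewer than 47% of the 18 samples. Il6, Lif and Osm did not pass, although Lif did in the samples of day 1 and of day 7. RNA was sequenced from 3-mm punches of skin and muscle of the rostral whisker pad in 9 adult mice, 3 at each of days 1, 3 and 7. The study kept Ai32, Emx1-Cre and ChAT-Cre lines, the sources used here assign no line to these 9 mice, and both sexes were used. In every mouse 2 branches of the facial nerve, buccal and superior marginal, were cut on the right (denervated) side, and the left (sham) side had a skin opening that was closed with its nerve whole. The lesion was always on the right, so side and lesion cannot be told apart, and both sides carried a skin wound.

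Cytokines of the IL-6 family bind a receptor of their own and signal through the shared chain gp130, the product of Il6st. Associated Janus kinases then phosphorylate STAT3, which enters the nucleus and switches on its targets. Socs3 is such a target, and its protein feeds back on the receptor complex. In muscle and peripheral nerve the family is known from injury, inflammation and regeneration. STAT3 is controlled largely by phosphorylation, which transcript levels do not measure.

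The sequences just before the start sites of Socs3 and Stat3 are shown, since these are the inhibitor and the factor whose levels are compared below, and STAT3 binds palindromes of the form TTCNNNGAA. They are RefSeq sequences of build GRCm38.p6, each 250 bases long, written 5′ to 3′ along the gene and ending at the base before the start. Capitals mark a match to TTCNNNGAA, which reads the same on both strands. The Socs3 window is chr11:117969367-117969616 and the Stat3 window chr11:100939541-100939790, both on the minus strand. The Stat3 window ends where the GENCODE gene starts, whereas the RefSeq start of Socs3 lies inside the GENCODE gene, so its window does too.
Socs3: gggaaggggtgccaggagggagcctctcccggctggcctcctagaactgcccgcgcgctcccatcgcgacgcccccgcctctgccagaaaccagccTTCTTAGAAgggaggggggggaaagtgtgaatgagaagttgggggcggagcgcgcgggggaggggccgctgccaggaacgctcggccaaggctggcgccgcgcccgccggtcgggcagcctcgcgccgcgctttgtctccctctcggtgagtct
Stat3: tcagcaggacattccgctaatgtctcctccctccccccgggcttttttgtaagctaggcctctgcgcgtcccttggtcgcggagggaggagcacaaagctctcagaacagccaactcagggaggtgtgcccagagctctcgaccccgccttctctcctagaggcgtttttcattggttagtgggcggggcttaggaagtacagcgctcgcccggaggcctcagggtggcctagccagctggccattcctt
Socs3 held 1 match, which begins 154 bases upstream of the start, and Stat3 held none. Of 32851 promoters with a window of this length, 7.02% held a match. Il6, Il6ra, Il6st, Lif and Osmr had none in their windows, nor had Lifr in either of its windows. The form with 4 bases in place of 3 between the same arms, found in 5.85% of the promoters, was in no window of these 8 genes. A match describes letters in a window and not binding. Osm was not analysed for promoter sequence here.

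The biopsies held the RNA of muscle and epidermis as labelled. The summed TPM of 7 skeletal muscle markers ran from 3282 to 21116, and that of 4 keratinocyte markers from 4256 to 8642. Depth was estimated at 10300000 to 32000000 reads per sample. 1 library stood apart for these genes, the denervated side of mouse 2 of day 1. Results that rest on it are given with and without it, except where stated. In a biopsy, fewer cells of a type and less RNA per cell cannot be told apart.

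On the sham side the mean levels in TPM (± SD, n = 9) ran from Stat3 (45.3 ± 5.24) and Il6st (27.3 ± 7.51) through Lifr (15.7 ± 2.67), Socs3 (13.6 ± 3.70) and Osmr (13.1 ± 3.04) to Il6ra (6.72 ± 1.54). The cytokine genes lay far lower, with Lif at 0.919 ± 0.349, Osm at 0.418 ± 0.633 and Il6 at 0.203 ± 0.149. Among neighbours in this order only Stat3 and Il6st, and Il6ra and Lif, had ranges that did not overlap. On the denervated side Stat3 and Il6st again did not overlap, nor did Lifr and Il6ra.

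**Figure D1:**
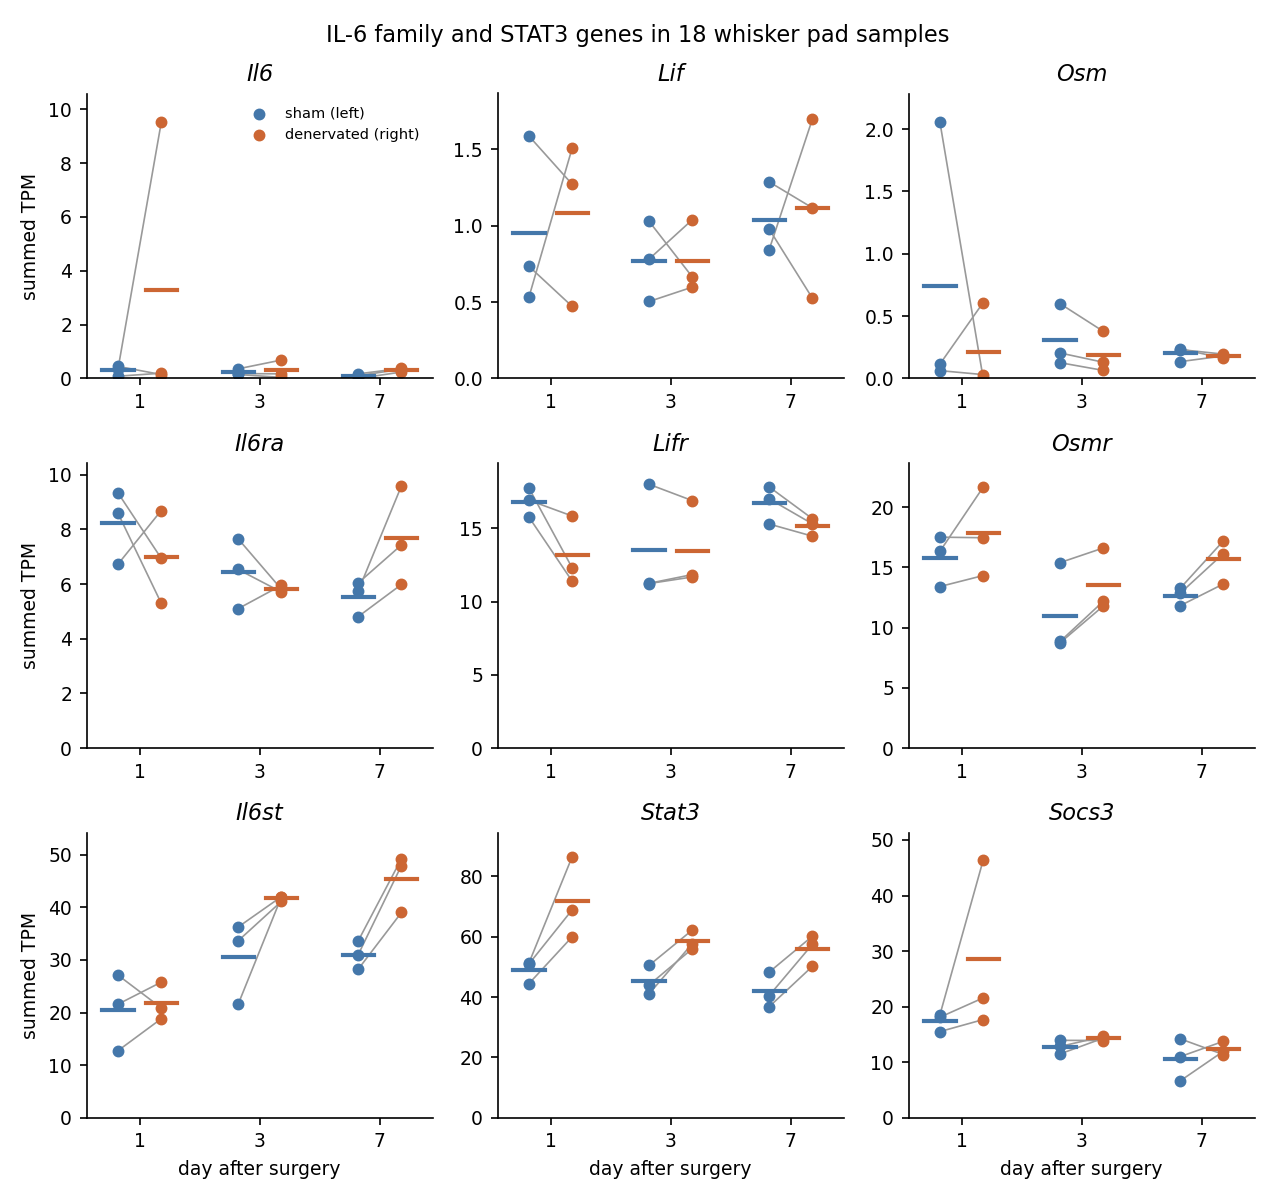
Summed TPM of each of the 9 genes by day after surgery (x axis) on the sham side (blue) and the denervated side (orange). Each point is 1 sample, grey lines join the sides of a mouse and bars are means of 3 samples. Stat3 is higher on the denervated side in all 9 mice, and Il6 at day 1 rests on 1 sample at 9.51.

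Il6, the founding cytokine of the family (chr5:30013114-30019981, plus strand, GRCm38), was nearly absent. At day 1 its sham levels were 0.0809, 0.354 and 0.446 TPM in mice 1, 2 and 3, and its denervated levels 0.193, 9.51 and 0.143 TPM. At day 3 the sham levels were 0.145, 0.356 and 0.180 TPM and the denervated levels 0.0368, 0.682 and 0.168 TPM. At day 7 they were 0.169, 0.101 and 0 TPM on the sham side and 0.372, 0.343 and 0.236 TPM on the denervated side. The denervated side of mouse 2 of day 1 was alone in exceeding 1 TPM. It held an estimated 142.9 reads of Il6, where the median of the 18 samples was 2.8. The sides did not overlap at day 7, beside 10.6% of the genes tested that day with every denervated sample above every sham sample. No sample of day 7 held over 3.8 estimated reads of Il6. At so few reads a difference between the sides was not detectable.

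Osm (oncostatin M, a cytokine made largely by myeloid cells) (chr11:4236420-4241026, plus strand) was as scarce, with a median of 3.5 estimated reads. At day 1 the sham levels were 0.0622, 0.115 and 2.05 TPM and the denervated levels 0.0304, 0.609 and 0 TPM. The highest sample was the sham side of mouse 3, and the denervated side of the same mouse held no read. Over days 3 and 7 the sham levels lay between 0.126 and 0.599 TPM and the denervated levels between 0.064 and 0.377 TPM, so the sides overlapped. The high sham sample of day 1 also had the highest level of the neutrophil receptor gene Csf3r among the 18 samples, at 7.99 TPM. The neutrophil markers S100a8, S100a9, Cxcr2, Retnlg and Mmp8 were highest in other samples. Whether cells of that kind carried the Osm reads was not tested.

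Lif (leukemia inhibitory factor, a nerve-injury cytokine) (chr11:4257557-4272514, plus strand) was the best detected of the 3, with 19.2 to 83.6 estimated reads per sample. Its sham levels were 0.734, 0.533 and 1.59 TPM at day 1 and 0.978, 0.844 and 1.29 TPM at day 7, and its denervated levels 0.471, 1.51 and 1.27 TPM and 0.525, 1.70 and 1.12 TPM. At day 3 both sides stayed between 0.504 and 1.04 TPM. The sides overlapped at each day, and Lif was higher on the denervated side in 4 of 9 mice. The log2 fold change was 0.13 at day 1 (95% interval -0.86 to 1.11, limma adjusted p = 0.999) and 0.01 at day 7 (interval -0.80 to 0.83, adjusted p = 0.992).

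The receptors were compared next. Il6st (chr13:112464070-112510086, plus strand) encodes gp130, which every cytokine of the family uses. At day 1 its levels were 12.8, 21.6 and 27.1 TPM on the sham side and 18.8, 25.8 and 20.9 TPM on the denervated side, which overlap. At day 3 they were 36.2, 33.6 and 21.5 TPM against 42.0, 41.1 and 41.9 TPM, and at day 7 31.0, 28.2 and 33.6 TPM against 47.9, 39.0 and 49.2 TPM. At days 3 and 7 every denervated sample was above every sham sample, as were 11.7% and 10.6% of all genes tested. Il6st was higher on the denervated side in 8 of 9 mice, the exception being mouse 3 of day 1, and 7.39% of all genes were higher in at least that many. Over all days the log2 fold change was 0.39 ± 0.13 (SE), and it did not pass the test (limma adjusted p = 0.144). Without mouse 3 of day 1 it was 0.48 and passed (limma adjusted p = 0.0411), beside 550 of 14793 genes called in that fit. Leaving out the only mouse that went the other way must raise the value, so no conclusion is drawn from this pass.

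Il6st also varied with time. On the denervated side its level was higher at day 3 than at day 1 by 0.93 ± 0.14 (log2, SE, limma adjusted p = 0.00565) and higher at day 7 than at day 1 by 1.04 ± 0.14 (adjusted p = 0.00207). Of all genes tested, 11.6% and 21.3% were called in these comparisons. When 1 mouse was left out the day 7 rise stayed past the threshold, with adjusted p up to 0.0134. With the most abundant transcript alone it was 0.58 (adjusted p = 0.0384). On the sham side the corresponding differences were 0.59 (adjusted p = 0.490) and 0.64 (adjusted p = 0.346), and the difference between the sides from day 1 to day 7 was 0.40 (interval -0.30 to 1.10, adjusted p = 0.848). A rise on the denervated side alone was therefore not shown. Muscle markers moved with it: from day 1 to day 7 on the denervated side all 7 rose and 6 were called, with a median log2 fold change of 1.37. Their mean summed TPM went from 8297 (range 4741 to 10481) to 19018 (17212 to 21116). On the sham side it went from 10638 (3282 to 17168) to 19628 (17890 to 20599). None of the 7 was called there, beside 0.00682% of all genes. All 7 were higher at day 7 on that side too, with a median log2 fold change of 1.22, and 4 had an unadjusted p under 0.05 by limma. Other markers also rose on the denervated side between these days, with 3 of 4 of mast cells, 3 of 7 of macrophages and monocytes, 2 of 4 of fibroblasts and 2 of 4 of endothelium called higher. On the sham side, where 2114 of 14671 genes had an unadjusted p under 0.05 by limma, none of these was called. At that level 2, 0, 2 and 2 of them were higher. Their part in the level of Il6st was not tested.

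Osmr, the receptor chain for oncostatin M (chr15:6813577-6874969, minus strand), had sham levels of 13.4, 16.3 and 17.5 TPM at day 1, 15.4, 8.74 and 8.85 TPM at day 3, and 13.3, 11.8 and 12.8 TPM at day 7. The denervated levels were 14.3, 21.7 and 17.5 TPM, 16.6, 11.8 and 12.2 TPM, and 17.2, 13.6 and 16.1 TPM. Within mice the denervated side was higher in 8 of 9, beside 7.39% of all genes in at least that many. Across mice the sides overlapped at days 1 and 3. The log2 fold change over all days was 0.26 ± 0.11 (SE, limma adjusted p = 0.294). When mouse entered the fit as a block, the same difference passed (limma adjusted p = 0.0483), beside 3.5% of all genes in that fit. An exact two-sided sign-flip test of the within-mouse differences gave p = 0.0078, and 0.134 after adjustment over all genes, where no gene passed. The call thus depended on the test used.

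Lifr, the receptor chain for LIF (chr15:7090614-7197489, plus strand), was lower on the denervated side in 7 of 9 mice. At day 1 its levels were 16.9, 17.7 and 15.8 TPM on the sham side and 15.8, 12.3 and 11.4 TPM on the denervated side. At day 3 they were 18.01, 11.2 and 11.2 TPM against 16.9, 11.7 and 11.8 TPM, and at day 7 17.01, 17.8 and 15.3 TPM against 15.3, 15.7 and 14.5 TPM. The sides overlapped at each day, at day 1 only through mouse 1. The log2 fold change over all days was -0.16 ± 0.10 (SE, limma adjusted p = 0.554).

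Il6ra, the binding chain for IL-6 itself (chr3:89864059-89913196, minus strand), showed no common direction. Its sham levels were 6.73, 9.33 and 8.59 TPM at day 1, 7.65, 6.53 and 5.10 TPM at day 3, and 6.04, 4.81 and 5.75 TPM at day 7. The denervated levels were 8.69, 6.94 and 5.30 TPM, 5.81, 5.71 and 5.95 TPM, and 7.43, 5.98 and 9.59 TPM. All 3 mice of day 7 were higher on the denervated side, against 1 of 3 at each of days 1 and 3. Neither the change over all days (log2 0.02, interval -0.25 to 0.29, limma adjusted p = 0.965) nor its difference between days 1 and 7 (0.65, adjusted p = 0.665) passed.

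Stat3, the transcription factor downstream of these receptors (chr11:100885098-100939540, minus strand), was the single member called between the sides. At day 1 its levels were 44.5, 51.3 and 51.0 TPM on the sham side and 60.0, 86.5 and 68.9 TPM on the denervated side. At day 3 they were 50.5, 43.99 and 41.1 TPM against 62.2, 56.0 and 57.7 TPM. At day 7 they were 48.2, 36.8 and 40.5 TPM against 60.2, 50.2 and 57.5 TPM. At each day every denervated sample was above every sham sample, as were 5.61%, 11.7% and 10.6% of all genes tested at days 1, 3 and 7. Over all days the mean level was 45.3 ± 5.24 TPM on the sham side and 62.1 ± 10.4 TPM on the denervated side (SD, n = 9).

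The log2 fold change of Stat3 over all days was 0.44 ± 0.077 (SE, 95% interval 0.28 to 0.61), with a limma adjusted p of 0.00339. In that comparison 3.1% of all genes tested were called, 1.92% as higher, and 1 of the 6 members tested was. Within mice the difference was 0.44 ± 0.13 (SD) and ran from 0.30 to 0.75, higher in 9 of 9 mice, as for 1.94% of all genes. An exact two-sided sign-flip test over the 9 mice gave p = 0.0039, the smallest that 9 pairs allow, and 0.116 after adjustment over all genes, where no gene passed and 16.2% had an unadjusted p under the threshold. Without mouse 2 of day 1 the log2 fold change was 0.41 (limma adjusted p = 0.00664).

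At single days the Stat3 difference was 0.54 at day 1 (limma adjusted p = 0.999), 0.38 at day 3 (adjusted p = 0.176) and 0.42 at day 7 (adjusted p = 0.293). None passed, nor did any other member, beside 0%, 1.45% and 1.53% of all genes called. At day 1 no gene passed, although 634 had an unadjusted p under the threshold. The change in the Stat3 difference was -0.16 from day 1 to day 3 (interval -0.57 to 0.26) and -0.12 from day 1 to day 7 (interval -0.53 to 0.30). Without mouse 2 of day 1 these changes were -0.05 and -0.01. No member was called in a comparison of the denervation effect between days. These called 0.122% of genes between days 1 and 3, 0.163% between days 1 and 7 and 0% between days 3 and 7.

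Markers of cell types were also compared between the sides. The summed level of 6 neutrophil markers was higher on the denervated side in 9 of 9 mice, with a mean difference of 3.08 on the log2 scale. Its range over samples was 25.7 to 960 TPM on the sham side at day 1 and 97.0 to 1990 TPM on the denervated side. At day 3 it was 34.1 to 351 against 371 to 1470 TPM, and at day 7 44.2 to 244 against 1356 to 2659 TPM. The sum was mostly S100a8 and S100a9, which epidermis also expresses. The defining receptor Cxcr2 stayed between 0.882 and 3.59 TPM and the granule enzyme Mmp8 between 0.170 and 2.82 TPM, and of the 5 markers tested over all days S100a8 alone was called (log2 3.62, limma adjusted p = 0.00582). Csf3r was at 0.12 and Cxcr2 at -0.01. Of 7 macrophage and monocyte markers and 7 muscle markers, 0 were called over all days by limma. An unadjusted p under 0.05 was held by 1 and 0 of them, beside 2163 of 14757 genes. The part of these cells in the Stat3 difference was not tested.

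**Figure D2:**
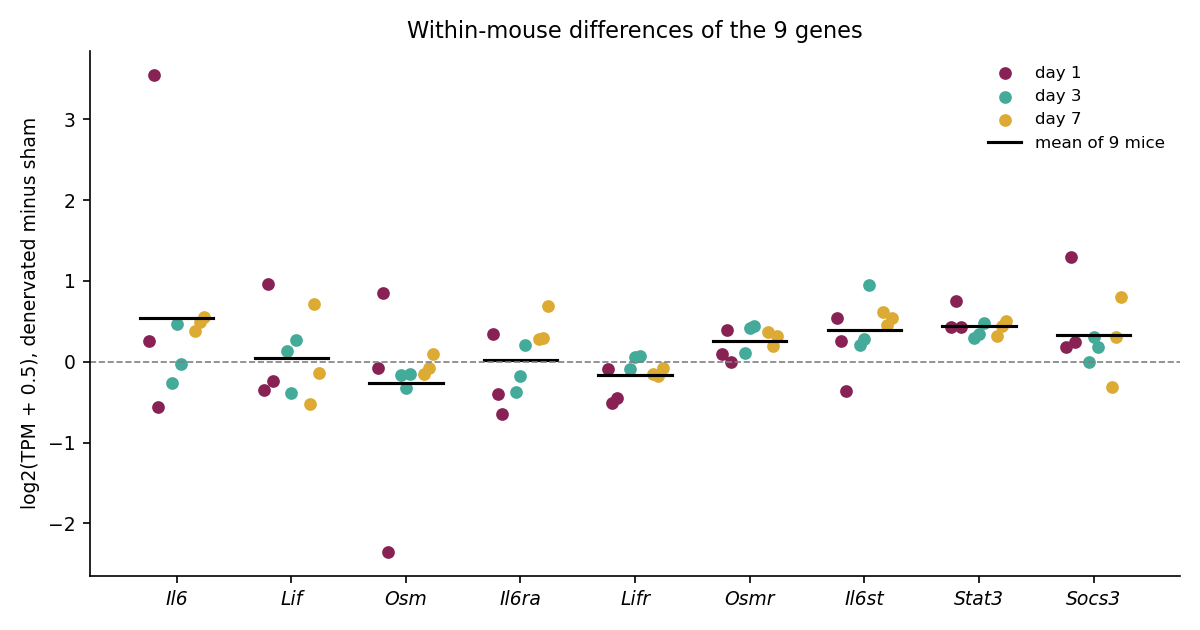
Difference between the denervated and the sham side of each mouse on the log2(TPM + 0.5) scale (y axis) for the 9 genes (x axis), coloured by day, with a bar at the mean of 9 mice. The 9 points of Stat3 lie between 0.30 and 0.75, all above 0, while the differences of Il6 and Osm run from -0.56 to 3.55 and from -2.35 to 0.85.

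Most of the Stat3 level came from 1 protein-coding transcript. Stat3-203 made up 81.9% ± 5.24 of the summed TPM on the sham side and 85.2% ± 3.95 on the denervated side (SD, n = 9). The retained-intron transcript Stat3-205 made up 8.36% and 6.06%. In TPM, Stat3-203 was at 37.1 on the sham side and 53.1 on the denervated side, and Stat3-205 at 3.79 and 3.70. Il6st was split between 2 transcripts, with Il6st-201 at 39.7% ± 13.3 on the sham side and 45.8% ± 10.5 on the denervated side, its share higher there in 8 of 9 mice. These shares come from reads that transcripts of a gene have in common, and they were not tested.

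Socs3 (chr11:117966079-117970047, minus strand), the feedback inhibitor, had sham levels of 15.5, 18.6 and 18.1 TPM and denervated levels of 17.7, 46.4 and 21.6 TPM at day 1. At day 3 they were 13.9, 11.5 and 12.8 TPM against 13.9, 14.3 and 14.6 TPM, and at day 7 14.2, 11.015 and 6.64 TPM against 11.4, 13.8 and 11.98 TPM. The sample at 46.4 TPM was the same library that held the Il6 reads and the highest Stat3 level. Socs3 was higher on the denervated side in 7 of 9 mice, and the sides overlapped at each day. The log2 fold change over all days was 0.34 ± 0.16 (SE, interval -0.01 to 0.68), which did not pass (limma adjusted p = 0.353). Without mouse 2 of day 1 it was 0.22 (adjusted p = 0.499).

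On the denervated side Socs3 fell by 1.05 on the log2 scale from day 1 to day 7 (limma adjusted p = 0.0389). In this comparison 21.3% of all genes tested were called, with 1125 of 14701 called lower. Without mouse 2 of day 1 the fall was smaller, at -0.64, and still called (adjusted p = 0.0202). This call was lost when mouse 3 of day 1, any mouse of day 3 or any mouse of day 7 was left out, with adjusted p from 0.0528 to 0.116. On the sham side the difference was -0.74 (adjusted p = 0.246), and no member was called between days there, beside 0.0818%, 0.00682% and 0.0136% of all genes for days 1 to 3, 1 to 7 and 3 to 7. No member was called between days 3 and 7 on the denervated side, beside 0.211% of all genes. The denervation effect of Socs3 itself differed between days 1 and 7 by -0.31 (interval -1.17 to 0.56, adjusted p = 0.913), and by 0.05 in the other direction without mouse 2 of day 1. The markers given with Il6st rose over the same days.

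**Figure D3:**
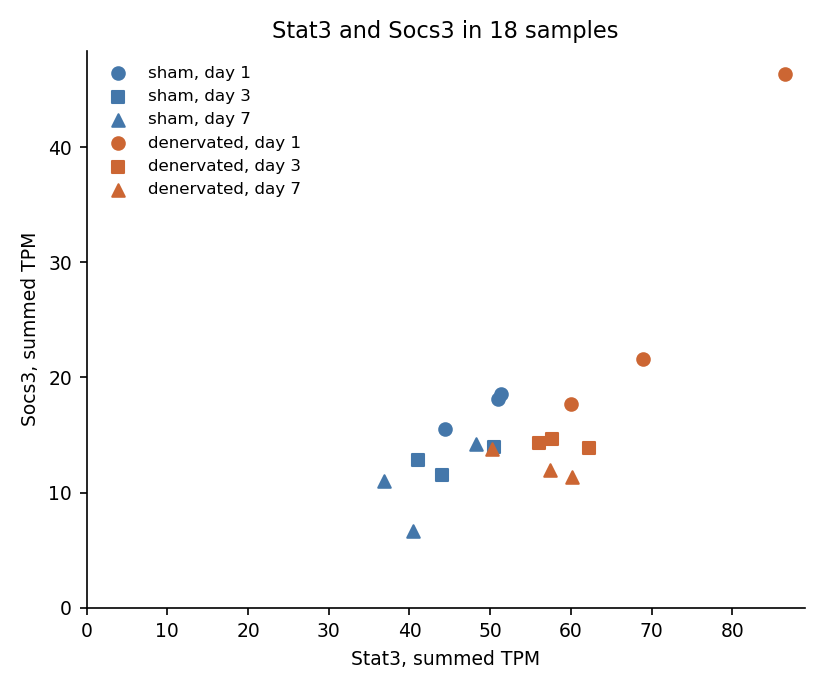
Summed TPM of Stat3 (x axis) and Socs3 (y axis) in the 18 samples, with colour for the side and shape for the day. The denervated side of mouse 2 of day 1 lies apart at 86.5 TPM of Stat3 and 46.4 TPM of Socs3.

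Across the 18 samples, which come from 9 mice, the levels of Stat3 and Socs3 had a Pearson r of 0.745 on the log2 scale, and of 0.583 without mouse 2 of day 1. For Stat3 and Osmr it was 0.73 and 0.651, and for Stat3 and Il6st 0.128 and 0.248. The genes most like each member over the 18 samples were Sec24a (0.878) and Tnfrsf1a (0.871) for Stat3, and Sbds (0.892) and Cyp17a1 (0.89) for Socs3. For Il6st they were Fermt2 (0.96) and Gprc5b (0.949), for Osmr Pdk4 (0.898) and Tacc2 (0.834), for Lifr Zc3h6 (0.891) and Crebrf (0.88), and for Il6ra Ano1 (0.956) and Acpp (0.838). These values describe samples that share side, day and tissue makeup.

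The other genes of the pathway were read against the same background of 3.1%. Among 9 other ligands and their partner subunits 6 were tested and 1 was called. Ctf1 (cardiotrophin 1, a ligand of gp130 and the LIF receptor) rose by 0.60 ± 0.11 (log2, SE, limma adjusted p = 0.00523), from 9.82 ± 0.956 TPM on the sham side to 15.8 ± 5.13 TPM on the denervated side (SD, n = 9), and was higher in 8 of 9 mice. At day 1 it was at 8.10, 10.004 and 9.24 TPM against 9.83, 10.9 and 8.66 TPM, which overlap. At day 3 it was at 10.9, 10.98 and 10.2 TPM against 24.3, 19.7 and 18.4 TPM, and at day 7 at 10.2, 10.1 and 8.74 TPM against 17.3, 15.8 and 17.6 TPM. The sides did not overlap on these days, beside 11.7% and 10.6% of all genes tested with every denervated sample above every sham sample. In at least 8 of 9 mice 7.39% of all genes were higher. Ctf1 differed by 0.92 at day 3 (adjusted p = 0.0245) and 0.78 at day 7 (adjusted p = 0.0295). Leaving out any 1 mouse of the day ended these single-day calls (adjusted p from 0.0758 to 0.329 at day 3 and 0.170 to 0.352 at day 7), and the call over all days held in each case. The difference between days 1 and 3 was 0.83, with an adjusted p of 0.0773. Cntf, a Schwann cell cytokine, was at 39.6 ± 16.2 TPM on the sham side and 28.3 ± 11.5 TPM on the denervated side (adjusted p = 0.478).

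Of 4 other receptors 2 were tested, Cntfr (0.08) and Il11ra1 (-0.03), and neither passed. The value of Cntfr averages days that differ, with 0.71 at day 1, -0.28 at day 3 and -0.19 at day 7, none of them called. At day 1 every denervated sample of Cntfr was above every sham sample, as were 5.61% of all genes tested. None of 8 kinases and adaptors passed, the closest being the Janus kinase Jak1 at 0.29 (adjusted p = 0.0722), which was higher in 8 of 9 mice. Of all genes 7.39% were higher in at least that many. Tyk2, another kinase of the family, was at -0.18 (adjusted p = 0.194). Of 6 other STAT genes 5 were tested and none passed, with Stat5b at 0.41 (adjusted p = 0.0891) and Stat5a at 0.35 (adjusted p = 0.154). At day 1 Stat5b was at 6.53, 8.37 and 10.1 TPM on the sham side and 6.87, 8.01 and 8.08 TPM on the denervated side, which overlap, and it stood at 9.75, 10.9 and 9.96 TPM against 13.9, 19.1 and 16.9 TPM at day 3. None of 13 negative regulators passed, the furthest from 0 being Socs2 at 0.26 (adjusted p = 0.630) and the phosphatase gene Ptpn6 at -0.20 (adjusted p = 0.372). At an unadjusted p under 0.05 these 4 lists held 4 higher genes and 1 lower gene, among 2, 8, 5 and 13 tested. Of all genes, 2163 of 14757 had such a p.

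Of 24 genes known as STAT3 targets all were tested, with 4 called higher and 1 lower. Their median log2 fold change was 0.14, beside 0.0072 for all genes. At days 1, 3 and 7 it was 0.33, 0.045 and 0.16, beside 0.0070, -0.015 and 0.039. Over all days 20 of 24 were above 0, and at the single days 21, 15 and 16. The share of all genes above 0 is not given here. The day 1 median and count include mouse 2 and are not given without it, so they may rest in part on that mouse. In mouse 2 of day 1, Saa3 differed by 6.87 and Mt2 by 1.96, and they were higher in 5 and 3 of 9 mice. Timp1, an inhibitor of matrix metalloproteinases, rose most, from 9.20 ± 2.49 to 36.6 ± 32.1 TPM (SD, n = 9), by 1.69 ± 0.30 (log2, SE, adjusted p = 0.00484), and was higher in 9 of 9 mice. Its highest sample, at 119 TPM, was again the denervated side of mouse 2 of day 1, without which mouse the value was 1.44. At day 3 alone Timp1 was at 10.4, 10.4 and 10.6 TPM against 28.2, 37.9 and 39.8 TPM (adjusted p = 0.00466). That single-day call was lost without mouse 2 (adjusted p = 0.155) or mouse 3 (adjusted p = 0.126) of the day, and in 1 fit of all 18 samples (adjusted p = 0.173). The cell cycle inhibitor gene Cdkn1a rose from 116 ± 15.7 to 171 ± 22.7 TPM (log2 0.56, adjusted p = 0.00245), with the sides apart at each day and every mouse higher. Of all genes tested 5.61%, 11.7% and 10.6% had every denervated sample above every sham sample at days 1, 3 and 7. As for Timp1 and Cdkn1a, 1.94% of all genes were higher in 9 of 9 mice.

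Ccl2, a chemokine that draws monocytes, was higher in 9 of 9 mice, as were 1.94% of all genes. It went from 7.30 ± 2.61 to 14.9 ± 6.94 TPM (log2 0.95, limma adjusted p = 0.0410). Its call was lost under the block (adjusted p = 0.0797) and when any of 7 mice was left out, with values from 0.71 without mouse 2 of day 1 to 1.04 without mouse 2 of day 7. Vegfa, an angiogenic growth factor, fell by 0.74 (limma adjusted p = 0.0334, and 0.00104 with the block), from 116 ± 47.7 to 68.6 ± 25.4 TPM. Without the block 1.18% of all genes were called lower. Vegfa was lower in 9 of 9 mice, and the share of all genes lower in 9 of 9 is not given here. Without 1 of 6 mice its adjusted p without the block went up to as much as 0.114. The transcriptional repressor gene Bcl6 was named after its value was seen. It rose by 0.48 (adjusted p = 0.0268, and 0.0568 with the block), in 7 of 9 mice. With the block, Bcl3 (log2 0.73, adjusted p = 0.0402) and Serpina3n (log2 1.22, adjusted p = 0.00302) joined the calls, both named for that change.

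**Figure D4:**
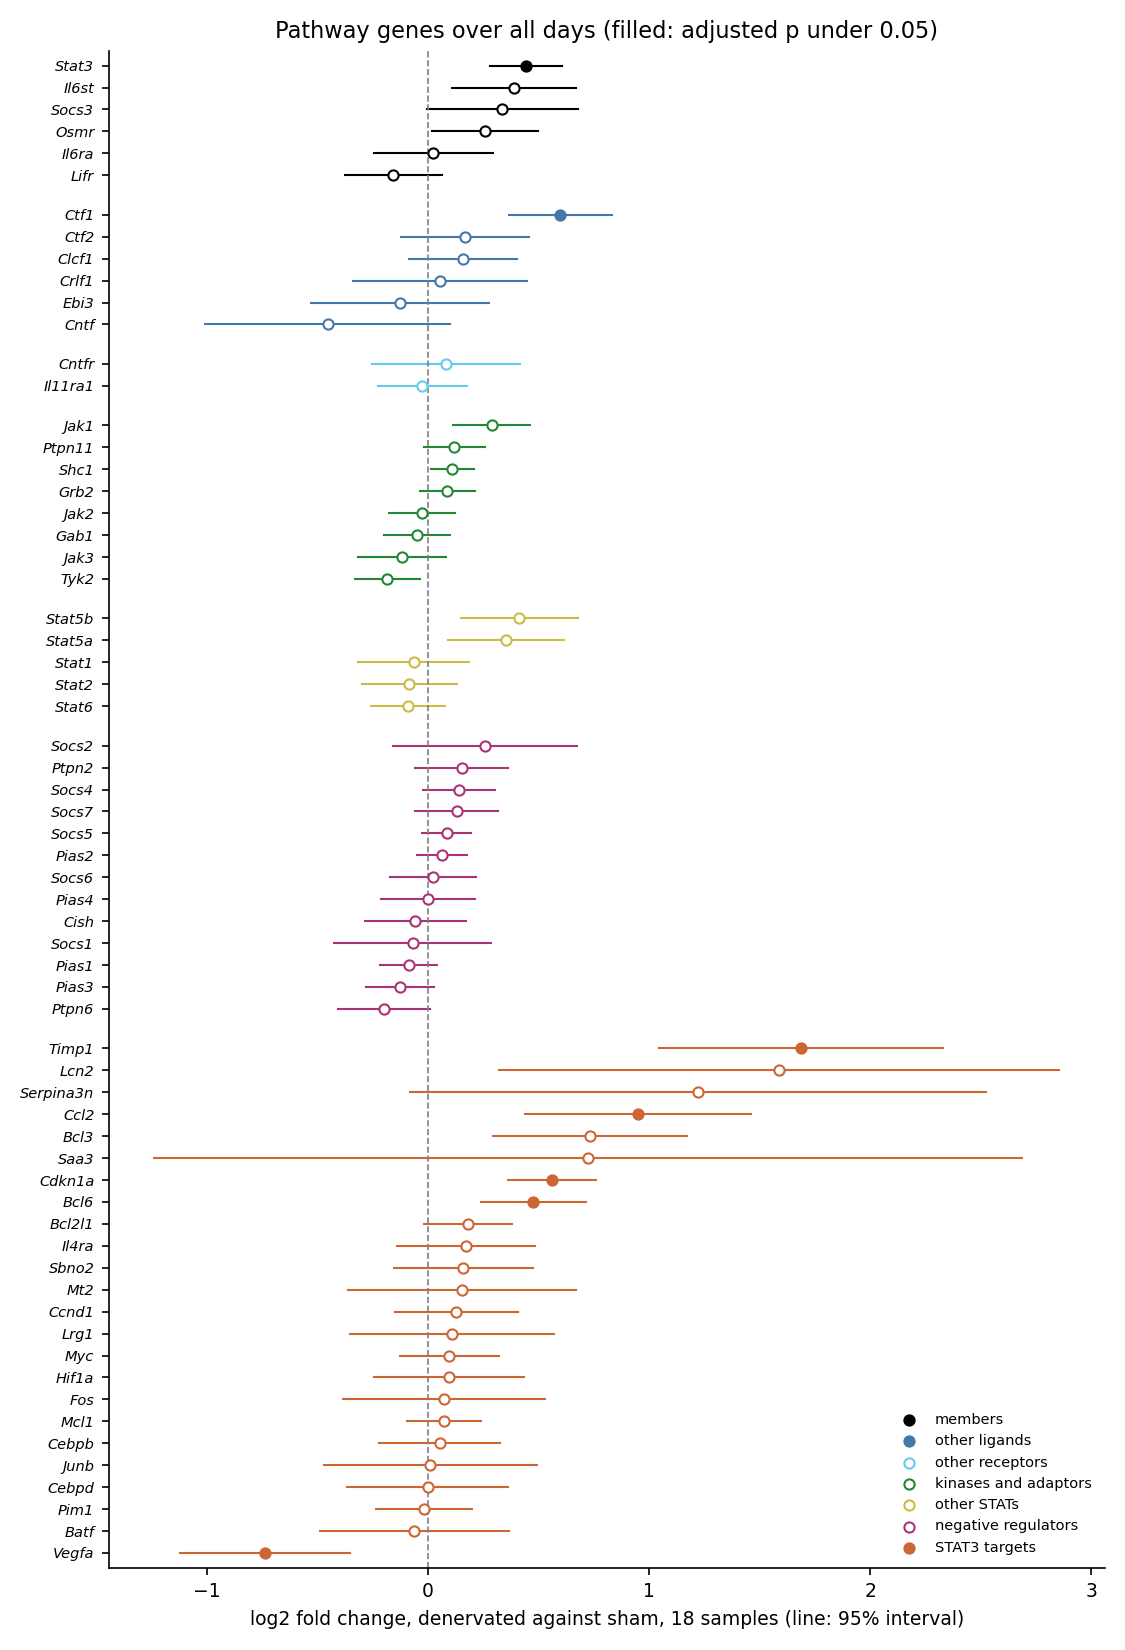
Log2 fold change of denervated against sham over all days (x axis), with its 95% interval, for the 6 members tested and the 58 other pathway genes tested, coloured by list. Filled points are past an adjusted p of 0.05: Stat3 (0.44), Ctf1 (0.60) and, among STAT3 targets, Timp1 (1.69), Ccl2 (0.95), Cdkn1a (0.56), Bcl6 (0.48) and Vegfa (-0.74).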

How the data were processed

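Samples were grouped by the day and side in their labels, and the sides of a mouse were matched by its title. The authors removed duplicate reads with ParDRe, trimmed them with Fastp, pseudoaligned them to GRCm38 transcripts with kallisto 0.43.1 and loaded them into sleuth, after base calling with bcl2fastq 2.17.1.14. The deposited values are a signal: TPM that the authors normalized between samples, with sums of 833186 to 1143839, which exceed the total of plain TPM in 10 of 18 samples. The tests had been chosen for plain TPM and were kept. No read counts were used. The experiment-wide and Wald tests of the study were not repeated.

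Of 113194 transcripts 98.46% matched GENCODE M21, and TPM were summed per gene. Summed values plus a pseudocount of 0.5 were log2-transformed and tested with limma 3.58.1 (R 4.3.3), letting the prior variance follow the mean level. A gene entered a comparison when no fewer than 47% of its samples had 1 TPM or more. Benjamini-Hochberg adjustment covered all genes tested, with a threshold of 0.05. Fold changes on this scale understate changes of low genes. The fit over all days had terms for day and injury, and single days and single sides were fitted alone. Differences between days were interaction terms. Sides share mice, so a second fit had the mouse as a block; its left and right residuals correlated at 0.163 to 0.568 over genes in all 9 mice. Within-mouse differences were tested with an exact two-sided sign-flip test. With 3 mice the smallest p is 0.25, so this test was not used at single days. Depth was estimated from low TPM of long single-transcript genes, where 76.8% to 85.2% of values lay within 0.1 of a whole read, assuming fragments of 200 bases; it describes counting error only. Python 3.11.15 with numpy 2.4.6, pandas 2.3.3 and matplotlib 3.10.9 did the remaining steps.

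The members and all gene lists were chosen with earlier results of these data known. Another list of cell type markers is not reported here. All 9 members are described. Of each other list the genes called over all days or at a single day were named, up to the 4 with the largest change, and otherwise the 2 with the largest change. Cntf, Saa3, Mt2, Bcl6, Bcl3 and Serpina3n were named outside this rule. For each member tested the 2 genes with the highest Pearson r were named. On data simulated with 200 changed genes among 14609, the fit over all days recovered 90.7% of 2-fold and 99.0% of 4-fold changes, and 2.63% of its calls were unchanged genes. At day 1 it recovered 37.5% and 81.6%, at day 3 50% and 85.7%, and at day 7 48.0% and 81.6%. The simulated errors were independent, whereas the real sides share mice. No change under 2-fold was simulated, so these rates do not cover smaller changes such as those of the members over all days. Pseudocounts of 0.1 and 1, filters of TPM above 0 and of at least 5, 2 other scalings, no trend, 1 fit of all 18 samples, the top transcript alone and leaving out each mouse were tried as alternatives.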

Additional observations from a re-analysis of the deposited data

Results flagged for a closer look

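Among the 9 within-mouse differences (denervated minus sham, log2) of each of the 9 genes, 3 held a mouse whose gap to its nearest neighbour was large against the whole range, with a ratio over the 95% critical value of Dixon's test for 9 values. Chance gives such a gap in about 1 in 20 groups. Il6 had its highest difference, 3.55, in mouse 2 of day 1 (ratio 0.729). Osm had its lowest difference, -2.35, in mouse 3 of day 1 (ratio 0.633), where the sham side was the high one. Stat3 had its highest difference, 0.75, in mouse 2 of day 1 (ratio 0.553), and the other 8 mice were also above 0.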

How the results depend on the processing

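The call of Stat3 over all days held under all 18 alternatives, at 0.41 to 0.50 (log2) with limma adjusted p of 0.00174 to 0.0170. The number of members called over all days went from 1 to 2 with the mouse as replicate block (Osmr joined), and was 1 to 2 with a mouse left out (Il6st joined without mouse 3 of day 1). The block changed no other call of a member. Leaving out a mouse gave 1 to 2 members called on the denervated side between days 1 and 3 and 1 to 3 between days 1 and 7. There a filter of TPM above 0 gave 1 (Socs3 was lost, adjusted p = 0.0531), while equal-sum scaling and leaving out mouse 1 of day 1 gave 3, with Stat3 lower at day 7 by log2 -0.53 and -0.47 in place of -0.35. Directions of uncalled members turned under some alternatives. Some of these values were near 0, while the denervation effect on Socs3 between days 1 and 7 was -0.31 in the main fit. Il6ra over all days was -0.0008 for its top transcript, and -0.0602 to 0.1072 with a mouse left out. Lif at day 7 was -0.0147 with a pseudocount of 0.1 and -0.0153 with median-of-ratios scaling. Lifr at day 3 was -0.0459 with equal-sum scaling and -0.0241 for its top transcript. The cause was not tested. Ranges with a mouse left out were -0.2745 to 0.0123 for Il6ra at day 3, -0.0588 to 0.3969 for Il6st at day 1, -0.2912 to 0.3612 for Lif at day 1, -0.336 to 0.2831 for Lif at day 7, -0.0177 to 0.0629 for Lifr at day 3, -0.0368 to 0.182 for Cntfr over all days, -0.0548 to 0.0145 for Il11ra1 over all days and -0.5756 to 0.0536 for the denervation effect on Socs3 between days 1 and 7. Over all single genes, 695 of 762 values under alternatives kept their direction and side of the threshold, 41 lost the call, 6 gained it and 20 turned. Depth limits Il6, Osm and Lif, whose reads number few, and 3 mice a day limit the single days.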
